A study of Mus musculus with 17 samples.

Results

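The type I interferon-stimulated genes were a set of 43 genes listed by gene symbol as classical antiviral effectors of interferon. The guanylate-binding proteins, the immunity-related GTPases, the MHC genes and the STAT genes were not part of the set. All 43 were found among the 22558 genes analysed in whole kidneys of 17 mice, 1 library per mouse. The Ctrl group held 5 male wild-type C57BL/6 mice given saline. The Case group held 6 male db/db mice (BKS.Cg-Dock7m +/+ Leprdb/J), which carry a defective leptin receptor and become obese and diabetic, also given saline. The Dapa group held 6 male db/db mice that received dapagliflozin (1 mg/kg daily), which inhibits SGLT2 and thereby the uptake of glucose by the proximal tubule. Treatment began at the age of 8 weeks and lasted 6 weeks, and kidneys were taken at 14 weeks. Because db/db mice are on the BKS background and Ctrl mice were C57BL/6, strain and leptin receptor genotype cannot be told apart in any comparison with Ctrl. In whole tissue, a change in the number of cells of a type and a change in RNA per cell cannot be told apart either.

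Type I interferons signal through the receptor chains IFNAR1 and IFNAR2 and the kinases JAK1 and TYK2. These activate a complex of transcription factors, with STAT2 and IRF9 among them, that binds the interferon-stimulated response element (ISRE) in promoters, and the induced proteins block viral replication at many steps. Interferon gamma acts on another element, the gamma-activated site (GAS), and induces part of the same genes. Tubular, endothelial and immune cells of the kidney can all respond.

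Promoter sequences were searched for this element. RefSeq promoter windows of the mouse build GRCm38.p6 (the mm10 assembly), 250 bases before to 50 after a start site of transcription, were at hand for 35 of the 43 genes, and Ifi27, Mx1, Mx2, Oas2, Parp9, Parp14, Rtp4 and Usp18 had no entry. The core of the ISRE was searched as GAAA, any 2 bases and GAAA on both strands, and occurred in the windows of 14 of the 35 genes, compared with 3.99% of 27025 genes. The GAS core letters TTCNNNGAA, which read the same on both strands apart from the free bases, occurred in 9 of 35 (25.7%), compared with 9.55% of all genes. The 2 motifs can overlap, and a match is a description of the letters, not of binding. The stretches below are read 5′ to 3′ on the strand of the gene and are shown because they hold the ISRE core upstream of the start site in genes described below; capitals mark the core, which appears as TTTC, 2 bases and TTTC where it lies on the other strand.

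Isg15: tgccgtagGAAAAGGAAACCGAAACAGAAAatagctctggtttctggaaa
Ifit1: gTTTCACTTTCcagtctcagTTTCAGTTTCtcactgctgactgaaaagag
Ifit3: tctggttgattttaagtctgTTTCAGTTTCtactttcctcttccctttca
Ifit3b: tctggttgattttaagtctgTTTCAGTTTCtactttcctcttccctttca
Ifitm2: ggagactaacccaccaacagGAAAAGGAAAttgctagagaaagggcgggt
Bst2: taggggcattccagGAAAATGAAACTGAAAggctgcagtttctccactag
Oas1a: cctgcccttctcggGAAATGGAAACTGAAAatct
Oas1g: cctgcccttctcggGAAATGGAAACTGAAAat
Rsad2: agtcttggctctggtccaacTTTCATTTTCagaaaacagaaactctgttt

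The Isg15 stretch lies at chr4:156200855-156200904 on the minus strand and holds 3 overlapping cores. The Ifit1 stretch, at chr19:34640784-34640833 on the plus strand, holds 2 separate cores. The stretches of Ifit3 (chr19:34583387-34583436) and Ifit3b (chr19:34607783-34607832), both on the plus strand, are the same base for base. On the minus strand lie those of Ifitm2 (chr7:140955978-140956027), Bst2 (chr8:71537567-71537616), Oas1a (chr5:120907526-120907559), Oas1g (chr5:120887614-120887645) and Rsad2 (chr12:26456543-26456592). Bst2, Oas1a and Oas1g each hold 2 overlapping cores, and Ifitm2 and Rsad2 hold 1. The other 5 genes with the core were Oas3, Eif2ak2, Ifitm3, Trim21 and Trim30a. It lay before the start site in Oas3, after it in Eif2ak2, Ifitm3 and Trim21, and on both sides in Trim30a, in different windows.

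**Figure D1:**
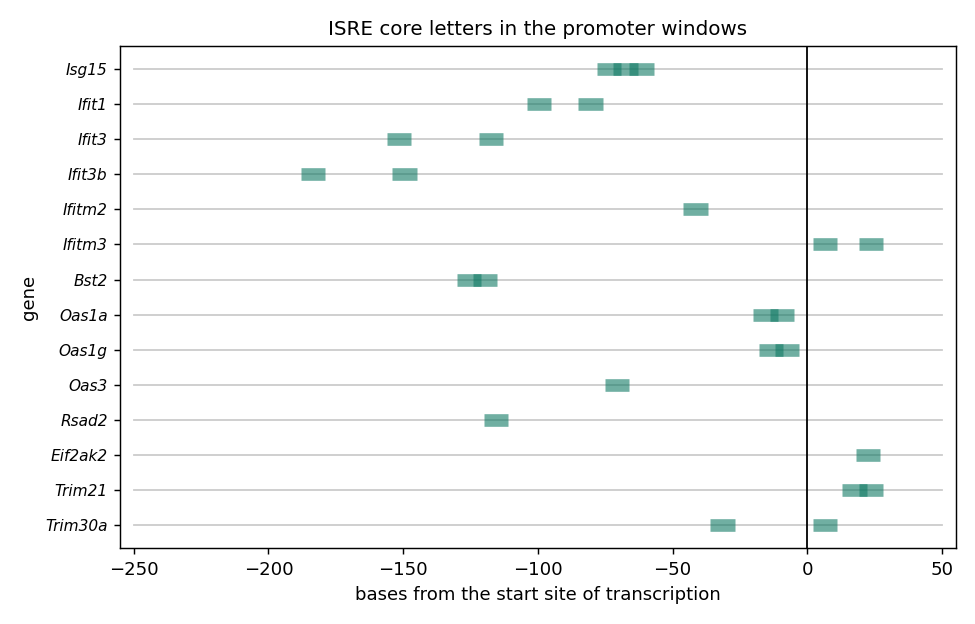
Position of the ISRE core letters (green blocks) in the promoter windows of the 14 genes that held them; the x axis gives bases from the start site of transcription, the grey line the window of each gene. Isg15 holds 3 overlapping cores, and the cores of Ifitm3, Eif2ak2 and Trim21 lie after the start site.

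The libraries held 13039535 to 17779635 counts, so a gene with few counts had a large counting error. Markers of proximal tubule, the main tissue of the kidney cortex, were abundant in all groups, with summed FPKM over 6 genes of 1786 to 2003 in Ctrl, 1096 to 2247 in Case and 1313 to 1739 in Dapa. The 5 markers of distal nephron and collecting duct summed to 617 to 1722, 1143 to 2987 and 1528 to 2332 in the same order. The 11 markers of T and NK cells summed to 1.90 to 2.86 FPKM in Ctrl, 0.928 to 2.53 in 5 Case mice, 6.15 in Case 3 and 2.11 to 5.14 in Dapa, and the 6 markers of B and plasma cells to 1.43 to 3.53, 1.31 to 2.27 and 1.64 to 7.06 in Ctrl, Case and Dapa. Mitochondrial genes took 17.9% to 20.4% of counts in Ctrl, 19.8% to 27.3% in Case and 19.7% to 27.6% in Dapa, above every Ctrl mouse in Case 1, 2, 3, 4 and 6 and Dapa 9 to 12. The macrophage and monocyte markers (10 genes) summed to 27.2 to 46.9 FPKM in Ctrl, 29.1 to 205 in Case and 25.7 to 63.2 in Dapa, and the erythrocyte markers (5 genes) to 18.2 to 69.6, 56.7 to 436 and 109.9 to 358. In 7 libraries (Ctrl 1, 3 and 4, Case 1, Dapa 10, 11 and 12) the FPKM of 3 genes left out here differed from what their counts give by a fraction of more than 0.01, and each comparison was repeated with a term for these 7.

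Levels differed widely between the genes. On the FPKM scale, which accounts for gene length, the highest mean over the 17 mice was that of Ifitm2 (64.9), followed by Samd9l (30.9), Ifitm3 (28.4), Bst2 (21.0) and Ifit3 (14.4). Oas3 and Oas1g were so low that they did not pass the filter on low counts in any comparison. This left 41 genes tested in each.

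Genes of the set lie in clusters. Ifit2, Ifit3, Ifit3b and Ifit1 follow each other on chromosome 19 from 34550694 to 34650009, and other neighbors are the Ifitm genes on chromosome 7, the Oas and the Oasl genes on chromosome 5, Rsad2 and Cmpk2 on chromosome 12, and, on chromosome 16, Parp14, Dtx3l and Parp9 as well as Mx1 and Mx2. Near-identical copies limit the reading of some of them: 51.2% of the 50-base stretches of Ifit3 also occur in transcripts of other genes, chiefly Ifit3b. The share was 57.6% for Oas1a, 48.5% for Ifitm2 and 45.0% for Ifit3b, and at most 14.4% for the genes other than these and Oas1g (45.7%). Dtx3l and Parp9 overlap on opposite strands, and Adar overlaps Chrnb2; the libraries were stranded, but whether the counting used strand is not given in the sources used here.

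**Figure D2:**
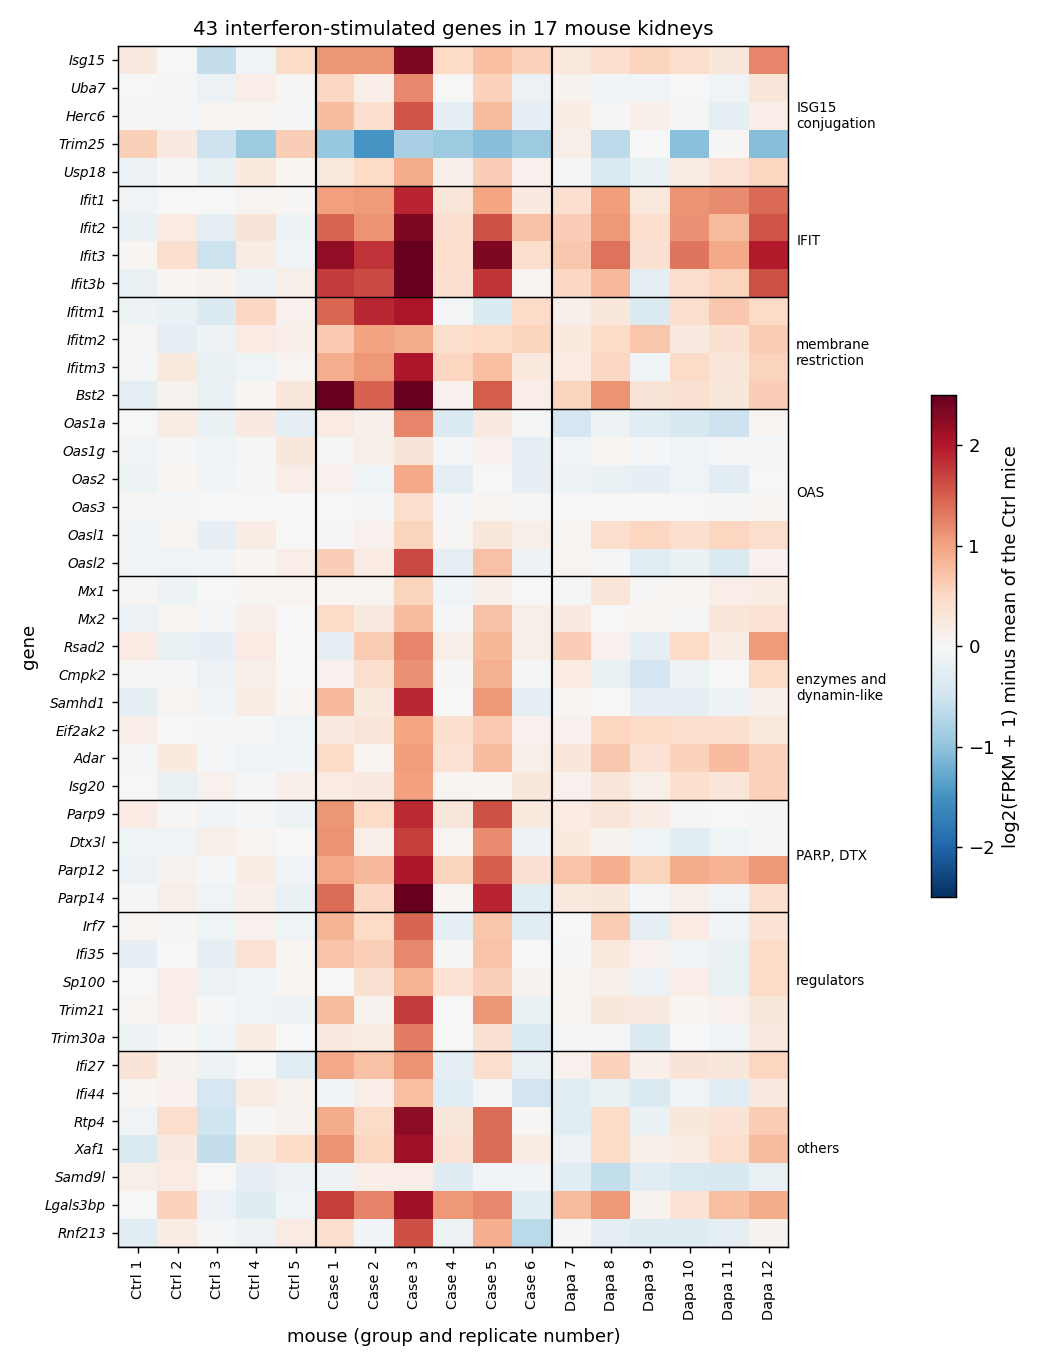
Level of each of the 43 genes (rows, grouped by role) in each of the 17 mice (columns), as the difference of log2(FPKM + 1) from the mean of the 5 Ctrl mice; differences past the end of the scale have the darkest color. Case 3 is the highest Case mouse for nearly every gene, Case 4 and Case 6 lie near Ctrl for most, and the IFIT rows and Parp12 stay red in most Dapa mice.

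The first comparison asked which of these genes differed in the untreated diabetic kidney. In Case compared with Ctrl, 12 of 41 genes passed the test at q < 0.05. Of these, 11 were higher, a share to be read against 6.09% of all 14582 genes called higher, and 1 was lower, against 6.91% called lower. Ifit3, Ifit3b, Bst2 and Ifit2 had the largest differences among the called genes. Of the 11 higher genes 10 were also more than 2-fold apart in mean FPKM (2.33% of all genes), as was the 1 lower gene, Trim25 (1.46%). The log2 fold change was above 0 for 38 of 41 genes (54.3% of all genes) and below 0 for 3 (45.7%), with a median of 0.94 (0.03 over all genes). For 7 genes every Case mouse lay above every Ctrl mouse (4.97% of all genes): Isg15, Ifit1, Ifit2, Ifit3, Ifitm2, Parp9 and Parp12. For 0 genes every Case mouse lay below (3.46%). At an unadjusted p under 0.05, 31 genes were higher (14.6% of all genes) and 1 was lower (14.1%). Some other methods called more of them. DESeq2, the exact test of edgeR and the fit of all 3 groups each called Adar, Dtx3l, Eif2ak2, Ifitm1, Mx2, Parp14, Rtp4 and Xaf1 higher. Usp18 was called by the first 2 of these methods, and Ifi35, Samhd1 and Sp100 by DESeq2 alone among them. Over all genes, these 3 methods called 1288, 1129 and 948 higher in that order, against 888 by the quasi-likelihood test used here. Other settings called fewer genes of the set. Limma on log2(FPKM + 1), limma on log2(FPKM + 0.1) and voom each called 11. The term for the 7 libraries called 9, and a fit with the replicate number as a block 6.

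The second comparison asked which genes differed with dapagliflozin within db/db mice. In Dapa compared with Case, 0 of 41 genes passed, as did 0 of all 14573 genes (0.0% in either direction). At an unadjusted p under 0.05, 25 genes of the set were lower (6.66% of all genes) and 1 was higher (6.24%). The log2 fold change was below 0 for 38 of 41 genes (51.2% of all genes) and above 0 for Trim25, Oasl1 and Adar (48.8%), with a median of -0.72. No gene of the set had groups without overlap, compared with 0.165% of all genes lower and 0.316% higher. DESeq2, an alternative count test, called 3 genes lower (Parp9, Dtx3l and Samhd1), beside 118 lower and 80 higher of all genes. The exact test of edgeR called 1 lower (Parp9), beside 90 lower and 39 higher of all genes.

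The third comparison asked which genes differed from Ctrl under treatment. In Dapa compared with Ctrl, 12 of 41 genes passed, 11 higher (14.2% of all 14647 genes) and 1 lower (14.9%). The fold of mean FPKM was above 2 for 5 of the higher genes (5.05%), and not for the lower one, Samd9l (2.12%). At an unadjusted p under 0.05, 12 were higher (20.7%) and 4 lower (20.4%). The log2 fold change was above 0 for 28 of 41 genes (51.4% of all genes) and below 0 for 13 (48.6%), with a median of 0.22 (0.02 over all genes). The groups did not overlap for 6 genes, with 0 lower (4.74% of all genes) and 6 higher (9.79%): Ifit1, Ifit2, Parp12, Bst2, Ifitm2 and Adar. The comparisons share groups of mice, so their values are given side by side below and are not independent of each other.

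**Figure D3:**
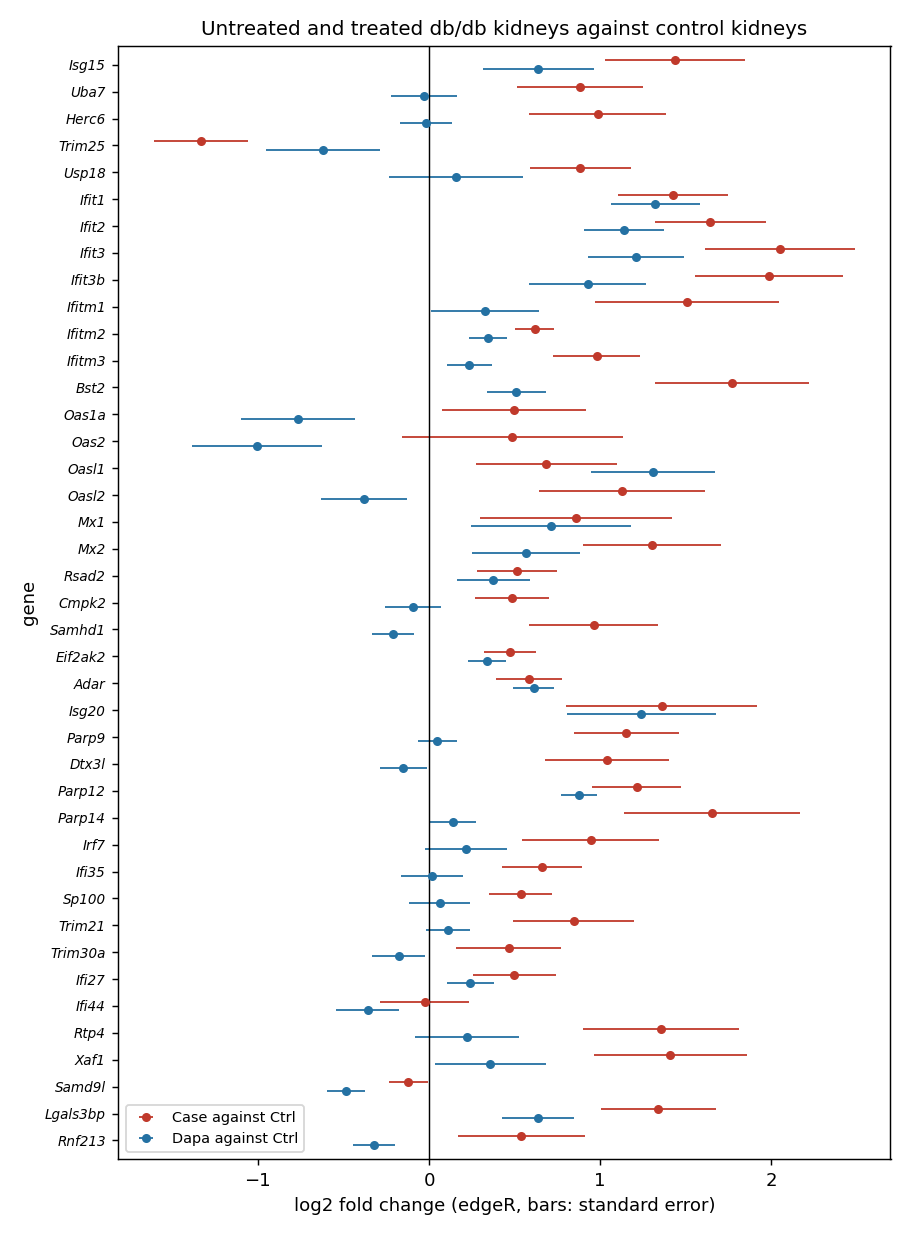
Log2 fold change (x axis) of the 41 tested genes (y axis, grouped by role) from edgeR, Case against Ctrl in red and Dapa against Ctrl in blue; bars are standard errors. The IFIT genes, Parp12, Adar and Isg20 lie right of 0 in both, while Parp9, Dtx3l, Samhd1 and Herc6 lie right of 0 in Case and near 0 in Dapa.

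ISG15 is a ubiquitin-like protein that is attached to other proteins by the E1 enzyme UBA7 and the ligase HERC6 and removed by USP18. Isg15 (ENSMUSG00000035692, chr4:156199424-156200818, minus strand) had FPKM of 2.28, 1.85, 0.867, 1.64 and 2.85 in Ctrl mice 1 to 5. In Case it ranged from 3.00 to 13.1 with a median of 4.40, and in Dapa from 2.40 to 5.58 with a median of 2.80. Every Case mouse lay above every Ctrl mouse, while Dapa overlapped both other groups, with 5 of its 6 mice at or below 3.14. The log2 fold change of Isg15 was 1.44 (SE 0.41, q = 0.0367) in Case compared with Ctrl. It was -0.79 (SE 0.35, q = 0.373) in Dapa compared with Case and 0.64 (SE 0.33, q = 0.157) in Dapa compared with Ctrl. The call in Case rested on few counts, 11 to 34 in the Ctrl mice, and was lost without Ctrl 1, Ctrl 2, Ctrl 3, Ctrl 4, Case 2 or Case 3 (q up to 0.0874) and with the term for the 7 libraries.

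Trim25, a ubiquitin and ISG15 ligase that activates the RNA sensor RIG-I, went the other way. Its FPKM was 19.9, 15.1, 8.68, 6.46 and 20.2 in Ctrl. The Case values were 3.98 to 6.86 (median 6.31), and the Dapa values 5.62 to 14.3 (median 10.3). Ctrl and Dapa mice were each spread over a wide range, and 5 of 6 Case mice lay below every Ctrl mouse. Trim25 was lower in Case than in Ctrl (log2 fold change -1.33, SE 0.27, q = 0.00917), and its value in Dapa compared with Case was 0.72 (SE 0.24, q = 0.259). The conjugation genes that did not pass were Uba7 (0.88, q = 0.134), Herc6 (0.98, q = 0.124) and Usp18 (0.88, q = 0.0679) in Case compared with Ctrl, of which Usp18 was called by DESeq2, by the exact test and without Ctrl 4. Against Ctrl, Uba7 and Herc6 stood at -0.03 and -0.02 in Dapa on the same log2 scale.

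The IFIT proteins bind viral RNA that lacks the host cap and block its translation. All 4 genes were higher in Case than in Ctrl, and 3 of the 4 were higher in Dapa than in Ctrl. Ifit1 had an FPKM of 1.09, 1.22, 1.26, 1.34 and 1.29 in Ctrl. It ranged from 1.63 to 7.41 in Case with a median of 3.48, and from 1.67 to 4.99 in Dapa with a median of 3.73, so all 12 db/db mice lay above the highest Ctrl mouse. Against Ctrl, Ifit1 differed by 1.43 (SE 0.32, q = 0.0141) in Case and 1.32 (SE 0.26, q = 0.00301) in Dapa on the log2 scale. The value in Dapa compared with Case was -0.10 (SE 0.34, q = 0.925).

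Ifit2 showed the same order of mice as Ifit1 at both ends of the Dapa group. Its FPKM was 1.92, 2.75, 1.77, 3.08 and 1.99 in Ctrl, 3.36 to 15.5 in Case with a median of 7.01, and 3.29 to 8.73 in Dapa with a median of 5.27. It was higher than Ctrl in Case (1.64, SE 0.32, q = 0.00709) and in Dapa (1.14, SE 0.23, q = 0.00376). Ifit3 was the most abundant of the family. Its FPKM was 5.33, 7.02, 3.21, 5.97 and 4.73 in Ctrl, 7.25 to 48.1 in Case with a median of 23.8, and 6.99 to 23.0 in Dapa with a median of 12.7. Of the db/db mice, only Dapa 9 fell within the Ctrl range. The difference was 2.05 (SE 0.44, q = 0.0113) in Case and 1.21 (SE 0.28, q = 0.00737) in Dapa. Ifit3b, which shares sequence with Ifit3, was higher in Case (1.99, SE 0.43, q = 0.0121) and stood at 0.93 (SE 0.34, q = 0.0569) in Dapa, where DESeq2, the exact test, upper quartile scaling, the filter of 10 counts and the fit without Dapa 9 called it higher. These IFIT calls held with any 1 mouse left out. In Case, that of Ifit3b was lost with voom and that of Ifit2 with the replicate number as a block.

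**Figure D4:**
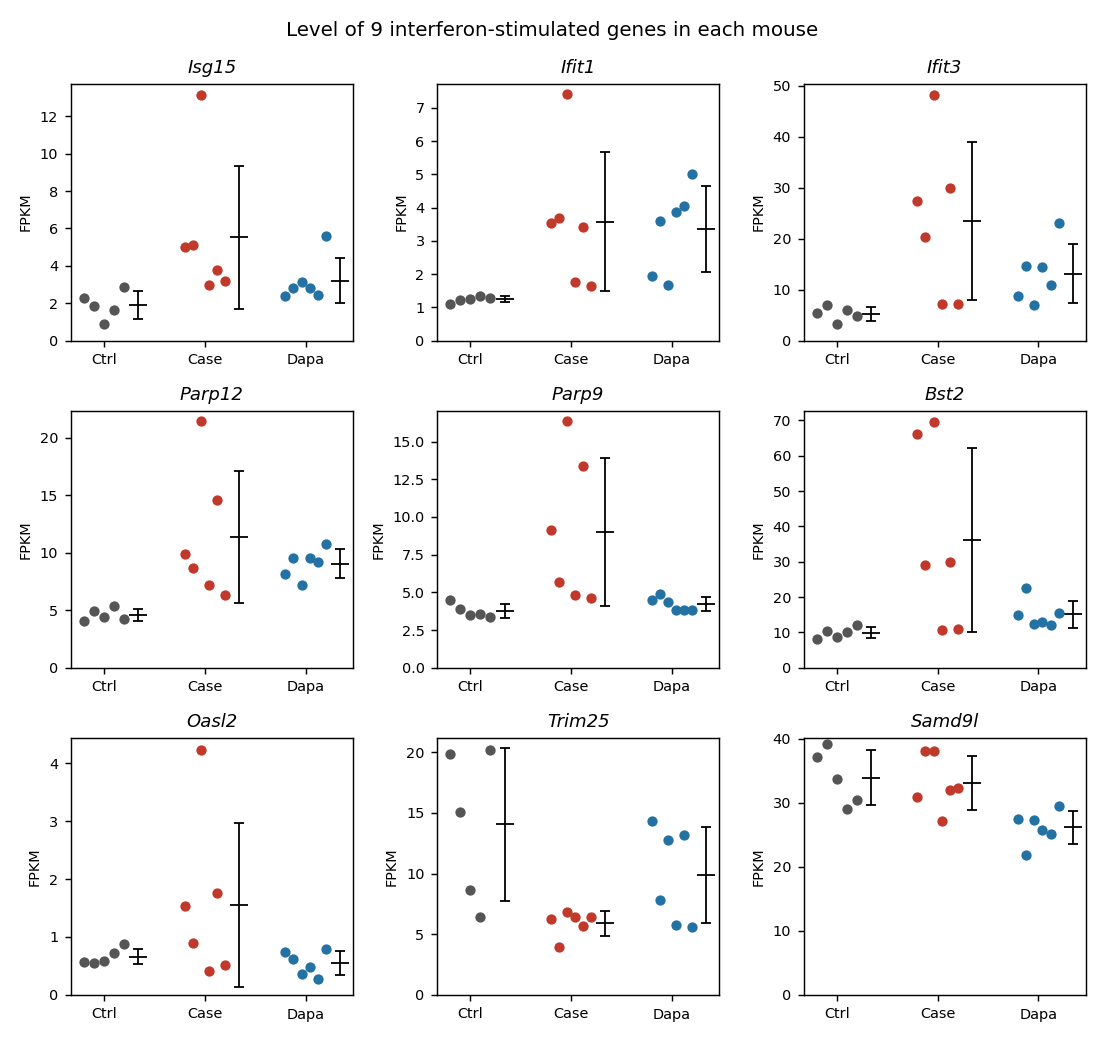
FPKM (y axis, from 0) of 9 genes in each mouse, Ctrl in grey, Case in red and Dapa in blue; lines are group means with SD (n = 5, 6 and 6). Case mice spread widely in most panels, and Case 3 is the highest Case mouse in each of the 9. Dapa mice lie near Ctrl for Parp9 and Oasl2 and above Ctrl for Ifit1 and Parp12.

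Genes whose products hold viruses at membranes include tetherin (Bst2), which ties budding particles to the cell, and the IFITM proteins, which block fusion. Bst2 had an FPKM of 8.06, 10.45, 8.58, 10.2 and 12.0 in Ctrl, 10.6 to 69.7 in Case with a median of 29.5, and 12.2 to 22.6 in Dapa with a median of 13.9. Case 1 and Case 3 were more than 2-fold above every other Case mouse, and Case 4 and Case 6 overlapped Ctrl. Bst2 was higher in Case (1.77, SE 0.45, q = 0.0237) and in Dapa (0.51, SE 0.17, q = 0.0410) than in Ctrl, and stood at -1.25 (SE 0.41, q = 0.255) in Dapa compared with Case. The call in Case was lost without Ctrl 1, Ctrl 2 or Ctrl 3 (q up to 0.0617), and the call in Dapa without Ctrl 1, Ctrl 2, Ctrl 3, Ctrl 4, Dapa 8 or Dapa 12 (q up to 0.0873). The Case call was also lost with limma on log2(FPKM + 1) and log2(FPKM + 0.1) and with voom (q up to 0.0845), and the Dapa call with no filter, with all 3 groups in one fit and with voom. Bst2 is also a marker of plasmacytoid dendritic cells, whose other markers were near 0 (Siglech at most 0.0786, Ccr9 at most 0.0302 and Spib at most 0.408 FPKM in any mouse).

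Ifitm2, the most abundant gene of the set, had small and even differences. Its FPKM was 48.7, 40.8, 43.7, 55.01 and 52.5 in Ctrl, 65.05 to 97.5 in Case with a median of 73.5, and 56.4 to 77.6 in Dapa with a median of 64.4, with no overlap of either db/db group with Ctrl. It was higher in Case (0.62, SE 0.11, q = 0.00526) and in Dapa (0.34, SE 0.11, q = 0.0364). The Dapa call was lost without Ctrl 1, Ctrl 2, Ctrl 3, Ctrl 5, Dapa 8, Dapa 9 or Dapa 12 (q up to 0.0855). Ifitm3 had 18.6, 22.7, 16.5, 17.5 and 20.03 FPKM in Ctrl, 22.6 to 80.6 in Case with a median of 34.6, and 17.4 to 28.3 in Dapa with a median of 25.1. It was higher in Case (0.98, SE 0.25, q = 0.0255), a call lost without Ctrl 1, Ctrl 3 or Ctrl 5 (q up to 0.0676) and with the term for the 7 libraries, and was not called in Dapa (0.24, SE 0.13, q = 0.202). Ifitm1 stood at 1.51 (SE 0.54, q = 0.0836) in Case, called by the 3 methods named above and without Case 5, and at 0.33 in Dapa.

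The OAS enzymes make 2′-5′ oligoadenylates, which act as a signal of viral RNA, and OASL1 and OASL2 are relatives of these enzymes. In Case the quasi-likelihood test called no OAS gene. Oasl2 had an FPKM of 0.574, 0.551, 0.583, 0.723 and 0.870 in Ctrl, 0.405 to 4.23 in Case with a median of 1.21, and 0.282 to 0.787 in Dapa with a median of 0.553. Case 3 alone exceeded 2 FPKM, and the log2 fold change of Oasl2 was 1.13 (SE 0.48, q = 0.144) in Case and -0.38 (SE 0.25, q = 0.277) in Dapa against Ctrl. Oasl1 had a different order of groups. Its FPKM was 0.187, 0.305, 0.0745, 0.402 and 0.249 in Ctrl, 0.213 to 0.811 in Case with a median of 0.347, and 0.300 to 0.791 in Dapa with a median of 0.687, where 5 of 6 mice lay above every Ctrl mouse. Oasl1 was higher in Dapa than in Ctrl (1.31, SE 0.36, q = 0.0172), stood at 0.68 (SE 0.41, q = 0.295) in Case, and at 0.63 (SE 0.32, q = 0.410) in Dapa compared with Case. Oas1a stood at 0.50 in Case and -0.77 in Dapa and Oas2 at 0.49 and -1.0, none of them called by the quasi-likelihood test. Without Case 3 the value of Oas2 in Case was -0.56. In Dapa compared with Ctrl, Oas2 was called lower by DESeq2, the exact test and voom, and both genes were called lower without Dapa 12. Oas3 had 1 to 53 counts in Case, with the highest in Case 3, and Oas1g 0 to 25.

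Among the other enzymes, ADAR edits double-stranded RNA and EIF2AK2 (PKR) halts translation when it binds it. Adar had an FPKM of 2.32, 3.05, 2.35, 2.24 and 2.29 in Ctrl, 2.58 to 6.07 in Case with a median of 3.60, and 3.26 to 4.84 in Dapa with a median of 4.13. The Dapa mice lay in a narrow band wholly above Ctrl. Adar was higher in Dapa than in Ctrl (0.61, SE 0.12, q = 0.00282), while the wider spread of Case gave 0.58 (SE 0.19, q = 0.0611). In Case it was called by DESeq2, by the exact test, with upper quartile scaling, with all 3 groups in one fit and without Case 2. The medians of Eif2ak2 had the same order of groups. It had 5.01, 4.39, 4.19, 4.14 and 3.96 FPKM in Ctrl, 4.77 to 9.58 in Case with a median of 5.76, and 4.75 to 6.74 in Dapa with a median of 6.12. It differed from Ctrl by 0.34 (SE 0.11, q = 0.0365) in Dapa and 0.47 (SE 0.15, q = 0.0580) in Case, where the same 4 alternatives on all mice, voom and the fit without Case 6 called it.

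Isg20, an exonuclease of single-stranded RNA, was low, with 2 to 17 counts in the Ctrl mice. Its FPKM was 0.179, 0.0322, 0.268, 0.141 and 0.285 in Ctrl, 0.218 to 1.39 in Case with a median of 0.361, and 0.267 to 0.750 in Dapa with a median of 0.446. Dapa 12 and Case 3 were the highest of their groups. It was higher in Dapa (1.24, SE 0.43, q = 0.0472) and stood at 1.36 (SE 0.56, q = 0.128) in Case. The Eif2ak2 call in Dapa was lost without any 1 of 8 mice (q up to 0.0891, held without Ctrl 1, Dapa 7 or Dapa 12), and that of Isg20 without any 1 of 7 (q up to 0.0925, held without Ctrl 3, Ctrl 5, Dapa 7 or Dapa 9). Both were also lost with no filter and with all 3 groups in one fit. Rsad2 (viperin), which makes a chain-terminating nucleotide, had 7.33, 5.33, 5.27, 7.29 and 6.16 FPKM in Ctrl, 5.30 to 15.9 in Case with a median of 8.63, and 5.21 to 14.2 in Dapa with a median of 8.22. Its groups overlapped throughout, and no comparison called it (0.51, q = 0.163 in Case and 0.37, q = 0.202 in Dapa). Cmpk2, its genomic neighbor on chromosome 12, stood at 0.48 (q = 0.159) and -0.10 (q = 0.693).

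The remaining genes of this group were the dNTP hydrolase Samhd1 and the dynamin-like GTPases Mx1 and Mx2. C57BL/6 mice are known to carry a defective Mx1. Mx1 was near its detection limit, with 2 to 14 counts in Ctrl, and stood at 0.86 (q = 0.338) in Case and 0.71 (q = 0.269) in Dapa. Mx2 stood at 1.3 (SE 0.40, q = 0.0503) in Case, where 5 of 12 other settings and the fits without Case 4 or Case 6 called it, and 0.57 (q = 0.193) in Dapa. For Samhd1 the values were 0.96 (SE 0.38, q = 0.112) in Case and -0.21 (SE 0.12, q = 0.214) in Dapa against Ctrl, and -1.17 (SE 0.35, q = 0.233) in Dapa compared with Case.

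The PARP family members PARP9, PARP12 and PARP14 act in ADP-ribosylation, and DTX3L is the ubiquitin ligase partner of PARP9. Parp12 had an FPKM of 4.05, 4.90, 4.40, 5.34 and 4.22 in Ctrl, 6.29 to 21.5 in Case with a median of 9.32, and 7.19 to 10.7 in Dapa with a median of 9.34. All 12 db/db mice lay above all 5 Ctrl mice. Parp12 was higher in Case (1.21, SE 0.26, q = 0.0112) and had the smallest q of the set in Dapa (0.87, SE 0.11, q = 0.000275), and both calls held with any 1 mouse left out.

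Parp9 did not show this in the Dapa mice. Its FPKM was 4.51, 3.88, 3.52, 3.58 and 3.38 in Ctrl, 4.62 to 16.4 in Case with a median of 7.41, and 3.80 to 4.88 in Dapa with a median of 4.12. Case mice lay above all Ctrl mice, by little in Case 4 and Case 6, and Dapa mice overlapped Ctrl. Parp9 was higher in Case than in Ctrl (1.15, SE 0.30, q = 0.0273), a call lost without Ctrl 2, Ctrl 3, Ctrl 4 or Ctrl 5 (q up to 0.0690) and with the term for the 7 libraries. It stood at 0.05 (SE 0.11, q = 0.776) in Dapa compared with Ctrl, and at -1.10 (SE 0.27, q = 0.197) in Dapa compared with Case, the smallest q of the set in that comparison. Its neighbors Parp14 and Dtx3l had like values, 1.65 (q = 0.0514) and 1.04 (q = 0.0769) in Case, and 0.14 (q = 0.488) and -0.15 (q = 0.437) in Dapa, against Ctrl. Both were called higher in Case by the same 3 methods and without Case 4 or Case 6, and Parp14 also with upper quartile scaling and the filter of 10 counts.

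The quasi-likelihood test called none of the 5 regulators of transcription and signalling, while DESeq2 called Ifi35 and Sp100 higher in Case. In Case Ifi35 was also called without Case 4 or Case 6, and Sp100 without Case 1. Trim21, a cytosolic antibody receptor, was the most abundant of them, with 3.11, 3.40, 2.86, 2.64 and 2.61 FPKM in Ctrl, 2.49 to 12.1 in Case with a median of 4.47, and 3.03 to 3.79 in Dapa with a median of 3.41. Case 6 was below every Ctrl mouse and Case 3 more than 3-fold above the highest. Trim21 stood at 0.84 (SE 0.35, q = 0.131) in Case and 0.11 (q = 0.545) in Dapa against Ctrl. Irf7, the factor that amplifies interferon production, stood at 0.94 (SE 0.40, q = 0.139) and 0.21 (q = 0.532). Ifi35, Sp100 and Trim30a stood at 0.66, 0.54 and 0.47 in Case and between -0.18 and 0.06 in Dapa.

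Of the 7 other genes, Lgals3bp, a secreted glycoprotein that binds galectins, was higher in both db/db groups. Its FPKM was 6.01, 9.52, 5.37, 4.73 and 5.56 in Ctrl, 4.90 to 29.7 in Case with a median of 15.5, and 6.51 to 14.1 in Dapa with a median of 11.0. Case 6 fell among the Ctrl mice and the other 5 Case mice lay above them. It stood at 1.34 (SE 0.33, q = 0.0219) in Case and 0.64 (SE 0.21, q = 0.0370) in Dapa. The Case call of Lgals3bp was lost without Ctrl 1, Ctrl 3 or Ctrl 5 (q up to 0.0596), and the Dapa call without Ctrl 1, Ctrl 3, Ctrl 4, Ctrl 5, Dapa 8, Dapa 11 or Dapa 12 (q up to 0.0829) and with all 3 groups in one fit.

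Samd9l, a restriction factor of poxviruses, was the called gene that was lower in Dapa. It was also the second most abundant of the set, with 37.1, 39.2, 33.6, 29.0 and 30.4 FPKM in Ctrl, 27.2 to 38.1 in Case with a median of 32.1, and 21.8 to 29.5 in Dapa with a median of 26.5. It was lower in Dapa than in Ctrl (-0.48, SE 0.11, q = 0.00633), stood at -0.12 (q = 0.524) in Case compared with Ctrl and at -0.36 (SE 0.10, q = 0.223) in Dapa compared with Case. Rtp4 and Xaf1 stood at 1.36 (q = 0.0669) and 1.41 (q = 0.0551) in Case and at 0.22 and 0.36 in Dapa. The 3 methods and the fit without Case 6 called both higher in Case, and Xaf1 was also called with upper quartile scaling and without Case 4. Ifi27, Rnf213 and Ifi44 stood at 0.50, 0.54 and -0.03 in Case and at 0.24, -0.32 and -0.36 in Dapa, none of them called by the quasi-likelihood test on all mice.

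The Case mice differed widely from each other. The mean of log2(FPKM + 1) over the 43 genes was 1.79 ± 0.09 in Ctrl (SD, n = 5), 2.36 ± 0.51 in Case (n = 6) and 2.01 ± 0.15 in Dapa (n = 6). Case 3 had 3.21, Case 5 had 2.54, Case 1 had 2.46 and Case 2 had 2.29. Case 4 (1.88) lay just above the highest Ctrl mouse (1.86), and Case 6 (1.80) within the Ctrl range, whose lowest mouse had 1.64. Case 3 was the highest Case mouse for 42 of the 43 genes, compared with 30.8% of all genes, and the exception was Ifitm2, highest in Case 2. Case 6 was the lowest for 23 genes, and the share of all genes lowest in Case 6 was not counted. Among the treated mice Dapa 12 was the highest for 28 of 43 genes (21.9% of all genes) and had the highest mean (2.27).

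Counted by mouse, 31, 28, 41, 13, 35 and 9 of the 43 genes were above every Ctrl mouse in Case 1 to 6. Of all tested genes, 34.3%, 37.3%, 44.2%, 33.0%, 30.1% and 25.1% were above every Ctrl mouse in the same order. In Dapa 7 to 12 the counts were 15, 21, 12, 15, 17 and 32, and the shares of all genes were 33.1%, 38.3%, 30.7%, 36.7%, 41.3% and 39.5%. The counts of Case 4 and Case 6, and of Dapa 7, 9, 10 and 11, were thus close to the shares of all genes. Without Case 3, 11 genes were still called in Case compared with Ctrl, all 11 of them among the 12 (Isg15 was lost), beside 716 higher and 982 lower of all 14414 genes. The median log2 fold change of the set was then 0.57, and that of Dapa compared with Case was -0.44.

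**Figure D5:**
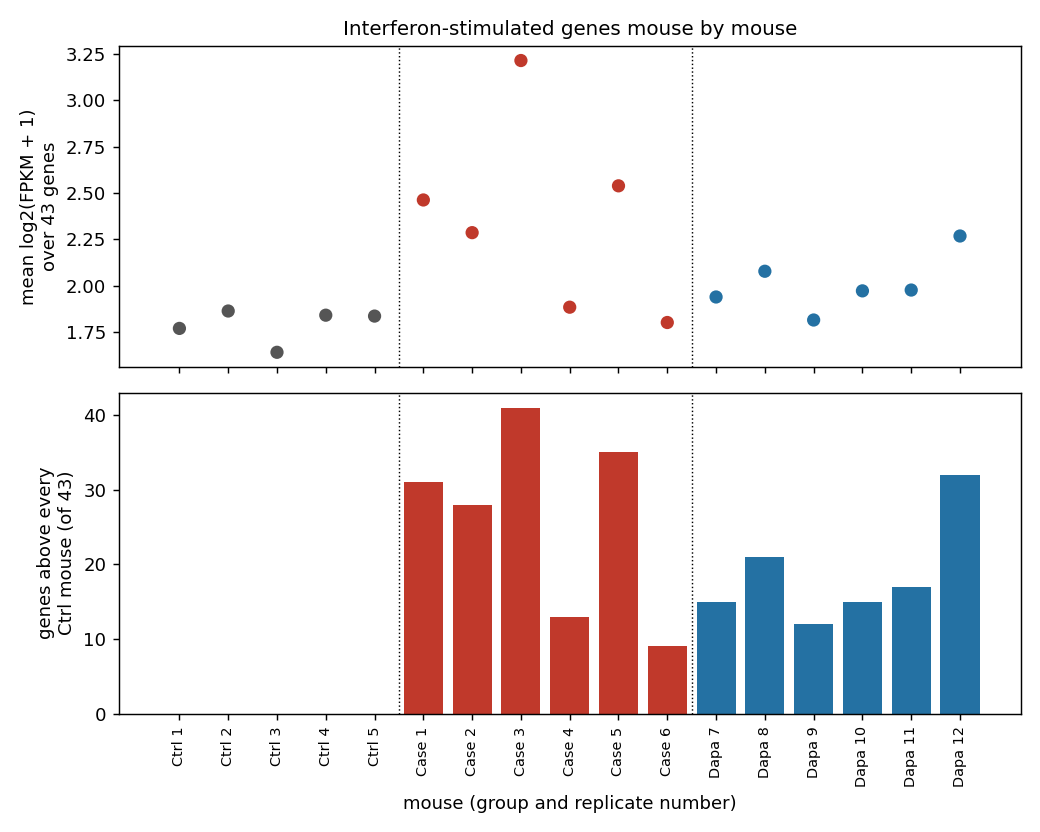
Mean log2(FPKM + 1) over the 43 genes in each mouse (upper panel) and number of the 43 genes above the highest Ctrl mouse (lower panel, bars from 0; by construction Ctrl mice have none); Ctrl in grey, Case in red, Dapa in blue. Case 3 has the highest mean (3.21) and 41 of 43 genes above Ctrl, Case 4 and Case 6 have 13 and 9, and Dapa 12 has 32.

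The roles did not follow the mice alike. Averaged over the 4 IFIT genes, the difference of log2(FPKM + 1) from the Ctrl mean was 0.37 to 2.43 in the Case mice and 0.20 to 1.64 in the Dapa mice, with Dapa 12 as high as Case 1. Averaged over the 4 PARP and DTX genes it was 0.06 to 2.05 in Case and 0.15 to 0.40 in Dapa. For the 6 OAS genes it was -0.14 to 0.86 in Case and -0.11 to 0.11 in Dapa. These differences between roles were not tested.

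The upstream pathway was measured in part. The 17 type I interferon genes listed, and Ifnl2 and Ifnl3 of type III, had no entry under these symbols among the genes analysed. The receptor chains Ifnar1 and Ifnar2 were not called in any comparison (0.0042 and 0.16 on the log2 scale in Case compared with Ctrl). Among the signal transducers reported here, Stat2 (1.14, SE 0.32, q = 0.0375) was higher in Case than in Ctrl, and Jak1, Tyk2 and Irf9 were not called. Under treatment, against Ctrl, Stat2 was higher (0.47, SE 0.12, q = 0.0106), and Jak1 (-0.33), Tyk2 (-0.31) and Irf9 (-0.42) were lower. With each of 11 mice left out in turn, Stat2 in Case was called 5 times, Tyk2 in Dapa 4 times and Irf9 in Dapa 3 times, and Stat2 and Jak1 in Dapa every time.

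Irf1, a factor induced by both interferon types, was higher in Case (2.00, SE 0.53, q = 0.0277) and not called in Dapa (0.13, q = 0.690). Irf3, which starts interferon transcription, was not called in Case (-0.20, q = 0.180) and was lower in Dapa than in Ctrl (-0.45, SE 0.12, q = 0.0159). The Irf1 call held in 7 and the Irf3 call in 11 of 11 fits with 1 mouse left out. Ube2l6, the E2 enzyme that passes ISG15 on, was higher in Case (1.42, SE 0.33, q = 0.0159) and in Dapa (0.94, SE 0.27, q = 0.0227), while the E1 enzyme Uba7, given above, was not called. Socs3, a feedback inhibitor, stood at 1.32 (q = 0.0636) in Case and was higher in Dapa (0.86, SE 0.25, q = 0.0211). Ifnlr1, the type III receptor chain, was higher in both (0.74, q = 0.0408 and 1.23, q = 0.00155), in Case in only 3 of 11 fits with 1 mouse left out. Its partner chain Il10rb was lower in Dapa (-0.32, q = 0.0294) and not called in Case (-0.05). The interferon gamma receptor chains Ifngr1 and Ifngr2 were not called in any comparison by the quasi-likelihood test on all mice, while upper quartile scaling, both limma fits and voom called Ifngr1 higher in Dapa than in Ctrl. The feedback inhibitor Socs1, with 0 to 43 counts, was too low to be tested. Ifng had 0, 0, 6, 1, 4 and 0 counts in Case 1 to 6 and 0 in every Ctrl and Dapa mouse, and was too low to be tested.

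The guanylate-binding proteins and immunity-related GTPases, large GTPases that answer to interferon gamma most strongly, give the contrast to the set. In Case compared with Ctrl their median log2 fold changes were 3.39 (10 rows tested, 9 called higher) and 3.01 (9 tested, 6 called higher), beside 0.94 for the 41 genes here. For Dapa compared with Ctrl they were 0.12 and -0.62, with 0 genes called higher and 2 immunity-related GTPases called lower, beside 0.22 and 11 called higher here. Summed over 11 symbols, the guanylate-binding proteins had FPKM of 250.2, 25.7, 441, 10.55, 187 and 6.82 in Case 1 to 6. The sum was 8.60 to 12.1 in Ctrl and 7.97 to 16.96 in Dapa. Case 4 lay within and Case 6 below the Ctrl range of this sum, while Ifit1, Ifit2, Parp12 and Ifitm2 were above every Ctrl mouse in these 2 mice. These are genes for which all Case mice lay above Ctrl; of the whole set, 7 genes in Case 4 and 13 in Case 6 lay below every Ctrl mouse (18.9% and 28.1% of all genes). The macrophage markers summed to 57.5, 58.4, 205, 32.5, 31.9 and 29.1 FPKM in Case 1 to 6. Case 5, with 35 genes of the set above Ctrl, lay within the Ctrl range of the macrophage sum. Of 11 macrophage rows tested, Cd14 was higher in Case (1.41, q = 0.0284) and the other 10 were not called. The 5 erythrocyte markers were higher in Case and in Dapa than in Ctrl. The proximal tubule sums of Case 1 to 3 (1139, 1381 and 1096 FPKM) lay below, and their distal nephron sums (2550, 1865 and 2987) above, those of every Ctrl mouse. In Case 5 these sums were 1826 and 1143, within the Ctrl ranges. Case 6 (1689) and all 6 Dapa mice also lay below every Ctrl mouse in the proximal tubule sum, and Case 4 (2247) lay above. Of the 6 proximal tubule markers, 2 were called lower in Case and 5 in Dapa than in Ctrl, and of the 5 distal markers 2 and 3 were called higher. The 5 neutrophil markers summed to 13.8 and 17.5 FPKM in Case 1 and Case 3, 0.616 to 2.71 in the other Case mice, 0.125 to 2.56 in Ctrl and 0.452 to 7.84 in Dapa. The 5 podocyte markers summed to 59.0 to 74.5 FPKM in Ctrl, 63.3 to 102 in Case and 70.6 to 96.8 in Dapa. Of these, 2 were called higher in Case and 2 in Dapa than in Ctrl. The 5 endothelial markers summed to 26.9 to 44.4, 30.5 to 47.0 and 34.3 to 60.4 in the same order, with Dapa 12 the highest, and 0 were called. The part of these cell types, and of the mitochondrial share given above, in the interferon-stimulated genes was not tested.

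With and without the ISRE core, the median fold changes in Case were close. There the median log2 fold change against Ctrl was 0.91 over the 12 tested genes with the core (7 called higher) and 0.94 over the 21 tested genes with a window but no core (3 called higher, 1 lower). Against Ctrl, the Dapa medians were 0.36 (5 called higher) and 0.02 (6 called higher, 1 lower), and in Dapa compared with Case -0.73 and -0.64. Of all genes, 6.09% were called higher and 6.91% lower in Case against Ctrl, and 14.2% and 14.9% in Dapa against Ctrl. The difference in calls between genes with and without the core was not tested. Ifit2, Parp12 and Adar were among those without the core in their windows, which says only that these letters are absent there.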

How the data were processed

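The authors prepared stranded poly(A) libraries, aligned reads to mm10 with HISAT2 and deposited, per gene and mouse, a read count and an FPKM value, which carries no scaling beyond library total and gene length (each FPKM of the genes analysed followed from its count within 0.0882%). Of 22561 genes, 3 with entries over 2 lines were left out. Groups were those of the labels, and p-values measure the spread between mice. No 2 libraries of a group were duplicates (lowest chi-square per gene 15.0). Deposited counts were compared with edgeR 4.0.16 in R 4.3.3 (filterByExpr, TMM, quasi-likelihood test, Benjamini-Hochberg adjustment over all genes tested, called at q < 0.05), each comparison on its own 2 groups. FPKM values are levels and were given as deposited, with a pseudocount of 1 where logged.

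The genes, roles, pathway lists and markers were chosen with earlier results of these data known. Values per mouse are given for Isg15, the most abundant gene of each role, up to 3 called genes per role, and the gene with the lowest log2 fold change in Case compared with Ctrl, 19 in all. Each fit was repeated with DESeq2 1.42.0, with the exact test of edgeR, 2 other scalings, 2 other filters, all 3 groups in one fit, limma 3.58.1 on log2(FPKM + 1) and log2(FPKM + 0.1), voom with sample weights, a term for 7 libraries, a replicate block and each mouse left out. The edgeR test and the motif search were tested on simulated data. Sequences and start sites are from RefSeq (GRCm38.p6), and 37 of 43 gene positions equalled GENCODE M21. Figures used Python 3.11.15 and matplotlib 3.10.9. Of the pathway genes listed, 2 are not reported here.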

Additional observations from a re-analysis of the deposited data

Results flagged for a closer look

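In 60 groups of mice (3 groups of each of the genes described mouse by mouse, and of the mean over all 43), 10 held 1 mouse set far apart from the others by Dixon's ratio. The cutoff of this ratio is passed by about 1 of 20 independent groups of normally distributed values. The groups here hold the same mice for every gene, so the 10 cannot be set against that rate. In the Case group, Case 3 stood apart for 5 genes, with FPKM of 7.41 for Ifit1, 80.6 for Ifitm3, 13.1 for Isg15, 1.39 for Isg20 and 4.23 for Oasl2. In the Dapa group, Dapa 12 stood apart for Isg15 (5.58 FPKM), Dapa 8 for Bst2 (22.6 FPKM) and Dapa 7, on the low side, for Oasl1 (0.300 FPKM). In the Ctrl group, Ctrl 2 stood apart for Adar (3.05 FPKM) and Lgals3bp (9.52 FPKM). The cause was not tested.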

How the results depend on the processing

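In Case compared with Ctrl, where 12 genes of the set were called, DESeq2 called 24, edgeR's exact test 21 and the fit of all 3 groups 20, and each of these held all 12. Over all genes, where the quasi-likelihood test called 888 higher and 1007 lower, these called 1288 and 1400, 1129 and 1109, and 948 and 1118. Leaving out 1 mouse gave 7 (without Ctrl 3, with 416 higher and 586 lower of all genes) to 19 (without Case 6, with 754 and 861). The term for the 7 libraries gave 9, with 538 and 681 of all genes. The median log2 fold change of 0.94 was 0.50 with limma on log2(FPKM + 1), a scale that shrinks low genes, and 0.57 to 1.09 with 1 mouse left out, lowest without Case 3. In Dapa compared with Case, 0 were called with any mouse left out, 3 by DESeq2 and 1 by the exact test, and the median was -0.85 to -0.44. In Dapa compared with Ctrl, leaving out 1 mouse gave 7 to 12 calls and medians of 0.16 to 0.29. Over all genes the quasi-likelihood test called 2073 higher and 2187 lower there. The 7 came without Dapa 8, with 1866 higher and 2036 lower of all genes. The 12 came without Dapa 7 (2342 and 2348) or Dapa 12 (1884 and 1914). The term for the 7 libraries gave 12 (2133 and 2258 of all genes). DESeq2 gave 14 there (2512 and 2390) and the exact test 14 (2244 and 2231). No filter gave 9 (1963 and 1895) and all 3 groups in one fit 8 (1968 and 2040). Replicate numbers 1 to 5 are shared by Ctrl and Case, but same-numbered mice did not deviate together (correlations of -0.122 to -0.026, and 0 of 5 Ctrl mice were closest to their own number), so they share only a number. A fit with the replicate number as a block, without Case 6, called 6 genes of the set, with 264 higher and 435 lower of all genes. The calls lost there were those of Bst2, Ifit2, Ifitm2, Isg15, Parp9 and Trim25.

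Among the genes described mouse by mouse, signs turned for 5, all in Dapa compared with Case, where none was called. With 1 mouse left out, Adar ranged from -0.061 to 0.18, Eif2ak2 from -0.18 to 0.0029, Ifit1 from -0.24 to 0.22, Isg20 from -0.29 to 0.48 and Rsad2 from -0.32 to 0.052, and each of the 5 was highest without Case 3. The value of Adar was below 0 without Case 2, Case 4, Case 6 or Dapa 11. Adar was -0.0095 with the term for the 7 libraries, Ifit1 was 0.15 with voom, and Isg20 was 0.00061 and 0.087 with limma on log2(FPKM + 1) and log2(FPKM + 0.1) and 0.26 with voom. Of the other values of single genes, 1185 kept direction and call, 74 lost the call and 13 gained it. Limma on log2(FPKM + 1) moved the split of all genes called higher and lower from 888 and 1007 to 1044 and 723 in Case compared with Ctrl, and from 2073 and 2187 to 2918 and 1488 in Dapa compared with Ctrl. Low counts limit the precision for Isg15, Isg20, Mx1, Mx2, Oas1g, Oas3 and Ifng, among others.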
